A study of Mus musculus with 6 samples.

Results

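The collagen genes are those of the deposited table whose symbol is Col, a number, the letter a and a number. This name rule found 44 genes among 55450. It left out 1 symbol that begins in the same way, Col4a3bp, which encodes a ceramide transfer protein and no collagen chain. All 44 are annotated as protein-coding and they lie on 15 chromosomes. By the structure of their products 11 were placed in the fibrillar class, 6 in the basement membrane class (the chains of type IV collagen) and 27 in other classes. RNA was measured in the left liver lobe of 3 LKB1 fl/fl mice and 3 wild-type (WT) mice of strain C57BL/J, where LKB1 is the protein kinase encoded by Stk11. All 6 mice, WT included, had received AAV8 Cre at an age of 6 weeks, an adeno-associated virus that brings the Cre recombinase into liver cells, and they are labelled as 10 weeks old. The fl/fl mice are labelled as LKB1 knockout (KO 1 to KO 3) and the others as normal (WT 1 to WT 3). The labels name neither the promoter that drives Cre nor the sex of the mice, and each library comes from 1 mouse.

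Collagens are matrix proteins whose chains carry long runs of the repeat glycine-X-Y and wind into a triple helix. Fibrillar collagens of types I, III and V assemble into the fibres of portal tracts and of liver scars, and fibril-associated collagens coat those fibres. Type IV collagen forms the sheet-like network of basement membranes around vessels and bile ducts, and type XVIII collagen, the source of endostatin, lies in the basement membrane zone and is made in quantity by hepatocytes. In healthy liver the fibrillar chains are made mainly by stellate cells and portal fibroblasts.

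Libraries held 47659122 to 56147667 counts in all, of which collagen genes took between 0.0620% and 0.140%. Levels are given as CPM, counts scaled to a common library total after correction for composition, and 3 counts correspond to at most 0.0641 CPM. Stk11 itself was at 22.1, 14.4 and 11.4 CPM in knockout and at 66.1, 64.2 and 69.7 CPM in WT, so each library followed its label. KO 1 and WT 1 had 42472 and 29243 counts of Xist and at most 6 Y-linked counts, whereas the other 4 libraries had at most 16 counts of Xist and at least 6146 Y-linked counts. Each group thus holds 1 library of the first kind and 2 of the second, and every main comparison is also given within these sets. KO 1 against WT 1 sets a single mouse against another, without replicates.

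Of the 44 collagen genes 30 passed the filter on low counts and were tested. The other 14 were Col2a1, Col10a1, Col19a1 and Col26a1, which had no count in any library, and Col4a6, Col6a4, Col6a5, Col9a1, Col9a2, Col9a3, Col11a1, Col17a1, Col25a1 and Col28a1, whose highest count in any library was 20. Among them are the chains of types II, IX and X and the type XI chain Col11a1, known from cartilage, while Col11a2 was tested. A count of 0 in these libraries allows a level of up to 0.0641 CPM, for counting error only.

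Levels of different genes were compared per kilobase of annotated exon. The length counts every annotated exon base of a gene, 6563 nt for Col1a1 and 12426 nt for Col1a2. Ranks and ratios between genes depend on this choice. Col18a1 stood far above the others, with 137 ± 8.33 CPM per kb in WT (SD, n = 3), which is 77.3% of the level summed over the 44 genes, and 80.8 ± 25.2 CPM per kb in knockout, which is 72.8%. The next in WT were Col14a1 at 7.91 ± 3.25, Col4a1 at 5.60 ± 1.29, Col3a1 at 4.74 ± 2.78, Col4a2 at 4.50 ± 0.370 and Col5a3 at 3.87 ± 2.52 CPM per kb, and each of these overlapped its neighbour in the order. Both type I chains were low, with 1.39 ± 0.761 CPM per kb for Col1a1 and 1.40 ± 0.702 CPM per kb for Col1a2. In knockout the order after Col18a1 was Col5a3, Col14a1, Col4a1, Col4a2 and Col15a1, while Col3a1 went from rank 4 to rank 7 and Col27a1 from rank 7 to rank 16.

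Most collagen genes had lower values in knockout, and 1 rose past the threshold. Over all 6 libraries edgeR's quasi-likelihood test called 1 of the 30 tested genes as higher, Col22a1, and 0 as lower, where 2.15% of all 14539 tested genes were called as higher and 1.22% as lower. Without adjustment 3 higher and 6 lower collagen genes passed 0.05, beside 3817 of all 14539 tested genes in either direction. DESeq2 called Col22a1 as higher and Col13a1 and Col18a1 as lower, and limma voom called none. Among all genes DESeq2 called 1271 as higher and 1019 as lower, and limma voom 254 and 178. The log2 fold change was negative for 23 of the 30, with a median of -0.75, against a median of 0.01 over all genes tested. By class the medians were -1.03 for 9 fibrillar genes, -0.54 for 5 type IV genes and -0.75 for 16 genes of other classes. Knockout and WT libraries did not overlap for 3 tested genes in the higher and 7 in the lower direction, beside 16.9% and 15.5% of all tested genes.

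More collagen genes passed among the libraries with Y-linked counts. With replicates 2 and 3 alone (2 mice against 2), 30 collagen genes passed the filter, and edgeR called 19 of them as lower and 2, Col15a1 and Col22a1, as higher, beside 16.1% lower and 17.2% higher among all 14546 genes tested there. This set holds Col6a5 and Col25a1, of the other classes, in place of Col4a3 and Col8a2. Col6a5 and Col25a1 were both called as lower. With at most 2 counts in KO 2 and KO 3, they passed the filter through the WT libraries alone. Col4a4, Col6a6 and Col24a1, also among the 19, had at most 8 counts in KO 2 and KO 3. They too passed the filter through the WT libraries alone. The medians of this fit were -1.51 for fibrillar, -0.71 for type IV and -1.04 for other genes, with 6 of 9, 3 of 4 and 10 of 17 called as lower. The median over all genes tested there was 0.01. The counts called include the genes that passed the filter through the WT libraries alone. In the replicate 1 pair 23 of the 30 genes tested over all 6 libraries were also lower in knockout. Their median log2 ratios were -0.37, -0.20 and -0.31 for the 3 classes, against -0.02 over all genes tested. For 22 genes KO 1 lay below WT 1 and both KO 2 and KO 3 lay below WT 2 and WT 3, a pattern that 24.5% of all tested genes had. For these same 22 genes KO 2 and KO 3 were the lowest of the 6 libraries, beside 24.3% of all genes. A fit over all 6 libraries with replicate 1 as a term called 6 collagen genes as lower (Col3a1, Col6a1, Col6a2, Col6a3, Col8a2 and Col13a1) and 2 as higher (Col15a1 and Col22a1), where it called 4.99% and 5.36% of all genes.

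**Figure D1:**
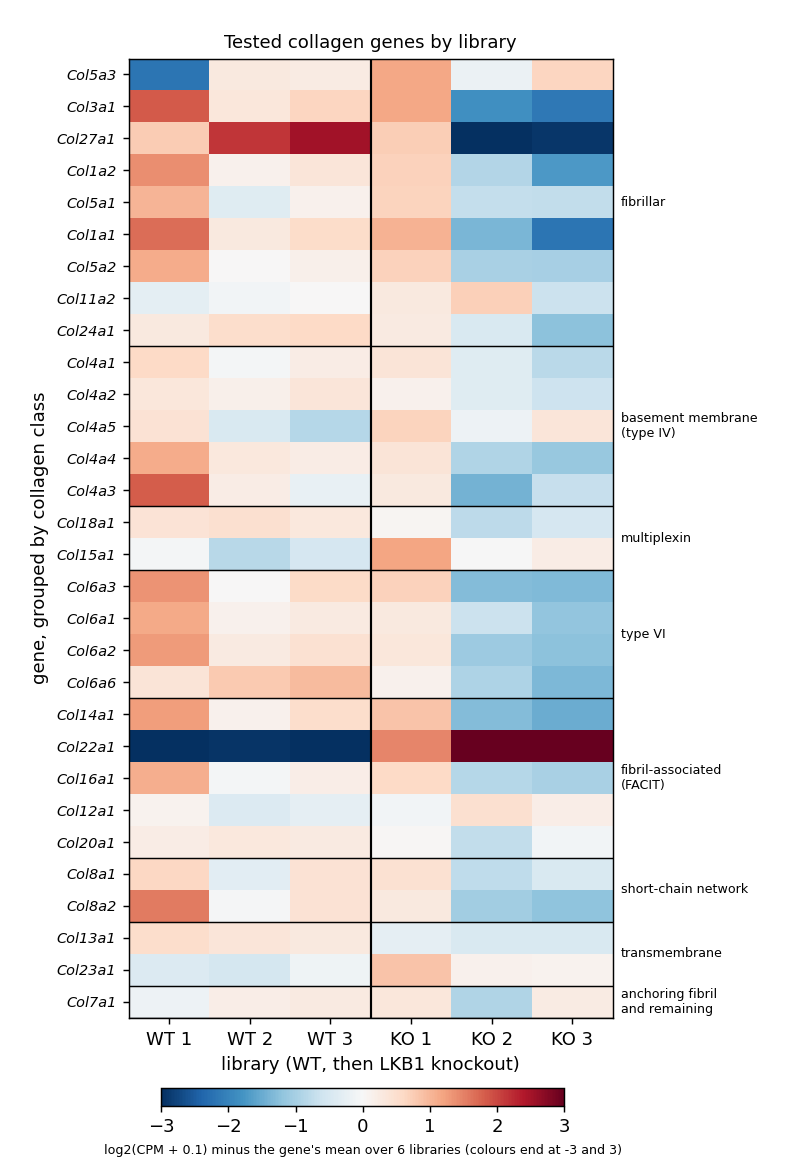
Heat map of the 30 tested collagen genes (rows, by class) in the 6 libraries (columns), with colour for log2(CPM + 0.1) minus the gene's mean over the libraries. KO 2 and KO 3 are the lowest columns for 22 of the 30 genes, and Col22a1 shows the opposite pattern.

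Bulk RNA cannot tell fewer cells of a type from less RNA per cell, which applies to every value that follows. Col3a1, the chain of type III collagen, had the highest mean level per kb of the fibrillar class in WT. It was at 48.7, 6.03 and 4.86 CPM in KO 1 to 3 and at 77.8, 27.7 and 34.0 CPM in WT 1 to 3. KO 1 lay above WT 2 and WT 3, so the groups overlapped, although each knockout lay below the WT libraries of its own kind. The log2 fold change over 6 libraries was -1.23 ± 0.913 (SE, edgeR adjusted p = 0.427), and with replicates 2 and 3 alone it was -2.50 ± 0.170 (adjusted p = 0.000800). In the replicate 1 pair the log2 ratio was -0.67.

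The type I chains followed the same order of libraries. Col1a1 had 9.52, 1.73 and 0.934 CPM in knockout and 14.8, 5.65 and 6.82 CPM in WT, and Col1a2 had 16.9, 5.60 and 3.06 CPM against 27.4, 11.3 and 13.4 CPM. Neither passed the threshold over 6 libraries (edgeR adjusted p = 0.416 and 0.347), while with replicates 2 and 3 their log2 fold changes of -2.22 and -1.51 did (adjusted p = 0.00662 and 0.0149). Col5a1 and Col5a2, type V chains that take part in setting fibril diameter, were at 11.7, 4.45 and 4.39 against 15.2, 5.67 and 8.10 CPM, and at 4.36, 1.296 and 1.27 against 5.84, 2.66 and 2.97 CPM. Of these Col5a2 alone passed the threshold with replicates 2 and 3, at -1.14 ± 0.226 (SE, adjusted p = 0.0161), and Col5a1 was at -0.64 ± 0.216 (adjusted p = 0.0695).

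Col27a1, a fibrillar collagen best known from cartilage, split by replicate number. It was at 0.666 and 0.849 CPM in KO 2 and KO 3 against 31.7 and 41.4 CPM in WT 2 and WT 3, but at 11.9 CPM in KO 1 against 12.1 CPM in WT 1. With replicates 2 and 3 alone the log2 fold change was -5.60 ± 0.220 (edgeR adjusted p = 0.000268), whereas the log2 ratio in the replicate 1 pair was -0.01. Over all 6 libraries it was -2.65 ± 1.12, with an adjusted p-value of 0.190. Col24a1 was low, at 0.309, 0.144 and 0.0424 CPM against 0.315, 0.386 and 0.406 CPM, and passed with replicates 2 and 3 but not over all 6 libraries (-2.02, adjusted p = 0.0467, and -1.12, adjusted p = 0.296). With replicates 2 and 3 it met the filter on low counts through the WT libraries alone. Col11a2 ran from 0.446 to 1.296 CPM in knockout, around the WT values of 0.591 to 0.748 CPM.

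Col5a3, the remaining type V chain, had another order of libraries. It was at 67.5, 26.8 and 47.3 CPM in knockout and 6.55, 37.0 and 35.4 CPM in WT, so that WT 1 was the lowest and KO 1 the highest of the 6. In the replicate 1 pair Col5a3 was 10.3-fold higher in knockout, whereas with replicates 2 and 3 the log2 fold change was 0.03 ± 0.261 (edgeR adjusted p = 0.946). Over all libraries it was 0.84 ± 0.630 (adjusted p = 0.428). The summed fibrillar level, to which Col5a3 adds the most in knockout, was 20.6, 6.19 and 8.62 CPM per kb in knockout and 16.8, 13.6 and 15.4 CPM per kb in WT. KO 1 had the highest and KO 2 the lowest sum.

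**Figure D2:**
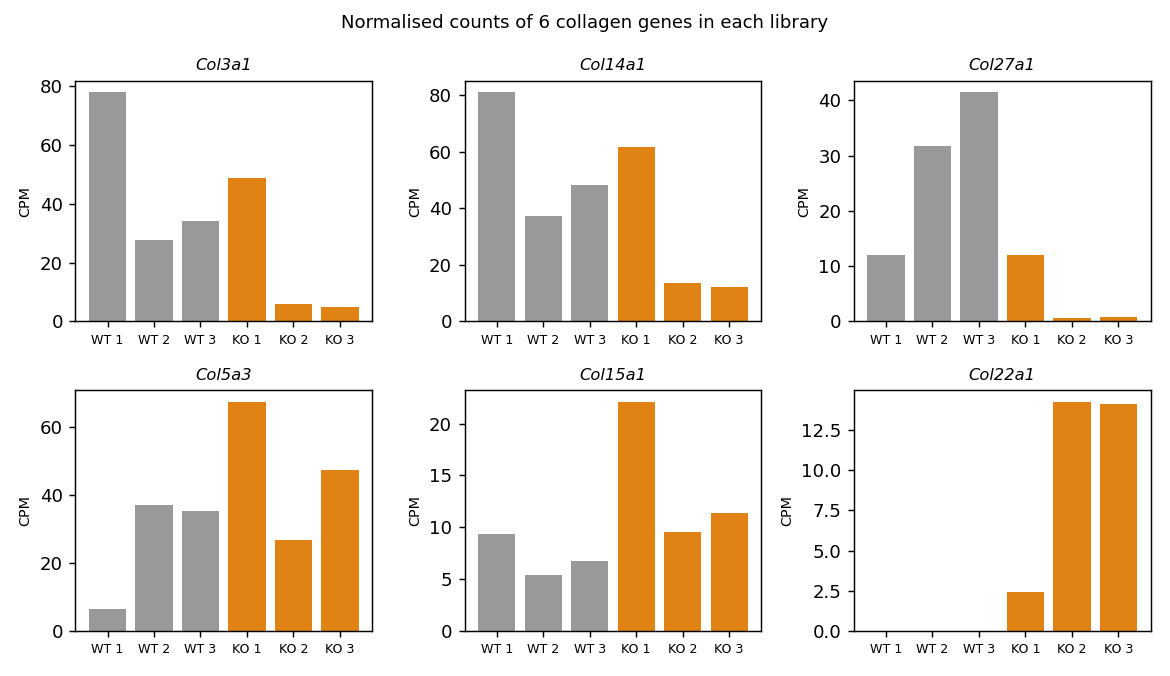
Bars give the CPM of 6 collagen genes in each library (grey, WT; orange, knockout), on linear axes that start at 0. Col3a1 and Col14a1 are lowest in KO 2 and KO 3, Col27a1 is level in KO 1 and WT 1 and far apart in replicates 2 and 3, Col5a3 is lowest in WT 1, and Col15a1 and Col22a1 are higher in each knockout library than in any WT library.

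The major type IV chains, Col4a1 and Col4a2, form the collagen found in most basement membranes. Col4a1 had 45.1, 26.8 and 19.6 CPM in knockout and 52.0, 33.0 and 40.3 CPM in WT, and Col4a2 had 26.8, 18.9 and 15.8 against 31.0, 27.0 and 31.5 CPM. The groups overlapped for Col4a1 and not for Col4a2, whose highest knockout value lay just below its lowest WT value. The log2 fold changes over 6 libraries were -0.45 ± 0.321 and -0.54 ± 0.205 (SE, edgeR adjusted p = 0.404 and 0.158). With replicates 2 and 3 alone both passed, at -0.66 and -0.76 (adjusted p = 0.0420 and 0.0128).

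The other type IV chains were less abundant. Col4a4 had 0.497, 0.144 and 0.106 CPM in knockout and 0.887, 0.463 and 0.428 CPM in WT, and passed with replicates 2 and 3 (-1.81 ± 0.428, edgeR adjusted p = 0.0269) but not over 6 libraries (-1.22 ± 0.650, adjusted p = 0.277). With replicates 2 and 3 Col4a4 met the filter on low counts through the WT libraries alone. Col4a3, its partner in the kidney filter, spanned 0 to 0.223 CPM against 0.128 to 0.828 CPM. The X-linked Col4a5 differed in direction, with 5.04, 2.81 and 4.03 CPM in knockout and 4.24, 2.24 and 1.69 CPM in WT. Its log2 fold change was 0.54 ± 0.393 (adjusted p = 0.414) and, with replicates 2 and 3, 0.79 ± 0.283 (adjusted p = 0.0819). The summed type IV level was 11.0, 6.89 and 5.65 CPM per kb in knockout and 12.5, 8.91 and 10.5 CPM per kb in WT.

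Some genes whose products assemble together lie next to each other in the mouse genome. Col4a1 (GRCm38 chromosome 8, 11198423 to 11312826, minus strand) and Col4a2 (11312805 to 11449287, plus strand) start head to head and their annotated ranges overlap by a few bases. Both RefSeq promoter windows of the pair (GRCm38.p6, from 250 bases before to 50 after the start, 5′ to 3′ on the strand of the gene) are shown because the 2 genes share this start region and were both lowest in KO 2 and KO 3. The windows are chr8:11312777-11313076 on the minus strand and chr8:11312555-11312854 on the plus strand, and capitals mark the CCAAT box, searched as CCAAT on both strands.
Col4a1: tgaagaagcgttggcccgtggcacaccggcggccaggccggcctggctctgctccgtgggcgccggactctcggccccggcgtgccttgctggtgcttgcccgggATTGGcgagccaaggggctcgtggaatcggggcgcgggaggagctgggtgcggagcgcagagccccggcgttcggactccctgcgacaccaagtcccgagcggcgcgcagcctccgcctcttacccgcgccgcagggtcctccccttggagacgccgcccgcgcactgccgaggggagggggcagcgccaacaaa
Col4a2: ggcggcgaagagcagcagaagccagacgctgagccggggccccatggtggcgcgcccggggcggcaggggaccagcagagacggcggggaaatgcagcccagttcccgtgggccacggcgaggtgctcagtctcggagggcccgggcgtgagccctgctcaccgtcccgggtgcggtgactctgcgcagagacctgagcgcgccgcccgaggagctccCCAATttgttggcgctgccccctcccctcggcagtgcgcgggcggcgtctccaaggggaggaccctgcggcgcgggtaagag
Each window holds 1 CCAAT match, while 37.4% of the 32851 windows in the table hold at least 1. The ratio of Col4a1 to Col4a2 per kb was 1.49, 1.26 and 1.10 in knockout and 1.49, 1.08 and 1.13 in WT, so that its ranges overlapped.

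Promoter windows are also shown for Col1a2 and Col3a1, which were lowest in KO 2 and KO 3, and for Col5a3, which was not. They lie at chr6:4505368-4505667 (plus strand), chr1:45311288-45311587 (plus strand) and chr9:20815018-20815317 (minus strand), and capitals mark matches to CCAAT or to the TATA box, searched as TATAAA on both strands.
Col1a2: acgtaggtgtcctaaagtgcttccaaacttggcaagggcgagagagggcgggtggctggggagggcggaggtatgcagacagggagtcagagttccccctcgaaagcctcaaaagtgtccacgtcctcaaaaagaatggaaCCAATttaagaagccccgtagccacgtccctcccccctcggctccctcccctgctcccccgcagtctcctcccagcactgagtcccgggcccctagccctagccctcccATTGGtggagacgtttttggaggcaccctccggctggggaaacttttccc
Col3a1: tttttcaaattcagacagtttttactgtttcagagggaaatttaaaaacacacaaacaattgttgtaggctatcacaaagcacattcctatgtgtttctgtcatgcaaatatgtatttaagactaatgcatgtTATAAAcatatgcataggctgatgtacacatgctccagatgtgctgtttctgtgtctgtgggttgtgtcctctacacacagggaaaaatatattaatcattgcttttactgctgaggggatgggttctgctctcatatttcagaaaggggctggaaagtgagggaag
Col5a3: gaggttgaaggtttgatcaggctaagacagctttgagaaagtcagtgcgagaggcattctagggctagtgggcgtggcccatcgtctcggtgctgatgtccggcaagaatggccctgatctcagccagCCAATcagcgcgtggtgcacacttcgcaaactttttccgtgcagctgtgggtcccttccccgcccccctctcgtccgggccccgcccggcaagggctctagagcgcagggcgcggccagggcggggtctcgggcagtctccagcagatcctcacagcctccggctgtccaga
Col1a2 holds 2 CCAAT matches and Col5a3 holds 1, neither with a TATAAA, and Col3a1 holds 1 TATAAA and no CCAAT. Windows were found for 35 of the 44 collagen genes and for 24 of the 30 tested. Among the 24, 8 genes had a window with CCAAT and 3 with TATAAA, and 13.6% of all windows hold a TATAAA. The GC box, searched as GGGCGG on both strands, stood in 23 of 38 collagen windows and in 35.7% of all windows. The cAMP response element, searched as TGACGTCA on both strands, was found in 1 collagen window, that of Col24a1, beside 1.79% of all windows. These matches describe the letters of the windows only.

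Col3a1 and Col5a2 are neighbours on chromosome 1 (45311538 to 45349706 and 45374321 to 45503282), as are Col6a1 and Col6a2 on chromosome 10 (76708792 to 76726168 and 76595762 to 76623630). The ratio of Col5a2 to Col3a1 per kb was 0.0916, 0.220 and 0.268 in knockout and 0.0768, 0.0984 and 0.0895 in WT, so KO 2 and KO 3 stood highest. The ratio of Col1a1 to Col1a2, whose products join in a common trimer, was 1.07, 0.584 and 0.579 in knockout and 1.03, 0.943 and 0.963 in WT. Here KO 2 and KO 3 were low and KO 1 lay just above WT. Col6a1 to Col6a2 was 2.91, 4.20 and 3.14 in knockout and 2.69, 2.71 and 2.63 in WT, and every knockout library lay above every WT library.

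Type VI collagen forms beaded microfilaments around cells, and all 4 tested chains had negative log2 fold changes. Col6a1 was at 6.71, 3.46 and 2.31 CPM in knockout and 12.0, 5.94 and 6.54 CPM in WT. Col6a2 was at 4.37, 1.57 and 1.40 against 8.50, 4.17 and 4.73 CPM, and Col6a3 at 9.30, 2.25 and 2.23 against 14.7, 5.71 and 8.53 CPM. In each case KO 1 lay above WT 2 or WT 3, so the groups overlapped. With replicate 1 as a term the 3 chains fell by 1.02, 1.36 and 1.32 on the log2 scale (edgeR, adjusted p = 0.0357, 0.0246 and 0.0408), and without that term the adjusted p-values were 0.221, 0.181 and 0.327. The replicate 1 pair had log2 ratios of -0.83, -0.94 and -0.66, and replicates 2 and 3 had log2 fold changes of -1.11, -1.58 and -1.67. Col6a6 was scarce, at 0.292, 0.0900 and 0.0424 CPM against 0.375, 0.521 and 0.599 CPM, and passed with replicates 2 and 3 (-3.004 ± 0.502, adjusted p = 0.00977) but not over 6 libraries (-1.77 ± 0.652, adjusted p = 0.149). With replicates 2 and 3 it met the filter on low counts through the WT libraries alone.

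**Figure D3:**
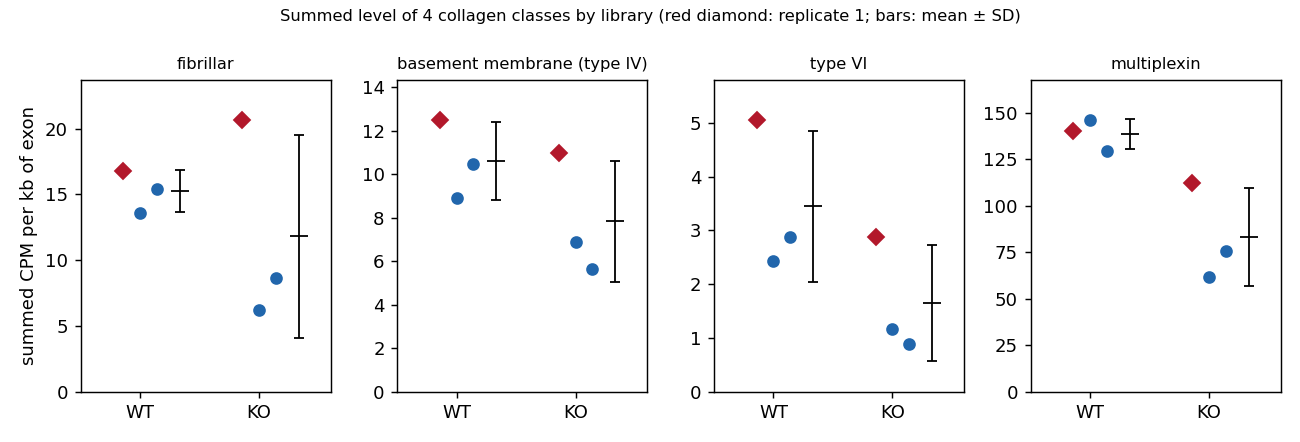
Summed CPM per kb of exon of 4 collagen classes in each library, with the replicate 1 libraries as red diamonds, the others as blue circles, and the mean ± SD (n = 3) beside them. The type VI sum is at most 2.89 in knockout and at least 2.42 in WT, with KO 1 among the WT values, and the multiplexin sum, nearly all Col18a1, does not overlap between the groups.

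The multiplexins Col15a1 and Col18a1, collagens of the basement membrane zone, went in opposite directions. Col18a1 had 764, 421 and 517 CPM in knockout and 975, 1018 and 902 CPM in WT, with no overlap. Its log2 fold change was -0.77 ± 0.252 (SE, edgeR adjusted p = 0.121), DESeq2 gave an adjusted p-value of 0.0187, and with replicates 2 and 3 alone it was -1.04 ± 0.192 (edgeR adjusted p = 0.0131). Col15a1 had 22.1, 9.58 and 11.3 CPM in knockout and 9.34, 5.40 and 6.78 CPM in WT, also with no overlap, and KO 2 lay only just above WT 1. Its log2 fold change was 1.00 ± 0.359 (adjusted p = 0.143), and it rose by 0.94 with replicate 1 as a term (adjusted p = 0.0337) and by 0.78 with replicates 2 and 3 alone (adjusted p = 0.0236). Without KO 1 the value was 0.54 (adjusted p = 0.147).

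Among the fibril-associated collagens Col14a1, the most abundant of the class, had 61.6, 13.7 and 12.0 CPM in knockout and 80.9, 37.1 and 48.3 CPM in WT. The groups overlapped through KO 1, and the log2 fold change was -0.93 ± 0.661 over 6 libraries (edgeR adjusted p = 0.405) and -1.74 ± 0.162 with replicates 2 and 3 (adjusted p = 0.00185). Col16a1 had 3.96, 1.37 and 1.25 against 5.58, 2.47 and 2.97 CPM and passed with replicates 2 and 3 (-1.06, adjusted p = 0.0234) but not over 6 libraries (-0.74, adjusted p = 0.413). Col12a1, at 2.52, 3.76 and 3.08 CPM against 2.90, 2.01 and 2.20 CPM, and Col20a1, at 0.396 to 0.755 CPM against 0.867 to 0.926 CPM, passed the threshold in neither set.

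Col22a1, a collagen known from tissue junctions such as that of muscle and tendon, was the collagen gene called over all 6 libraries. It had 142, 792 and 665 counts in KO 1 to 3 and 0, 1 and 0 counts in WT 1 to 3, or 2.44, 14.3 and 14.1 CPM against at most 0.0193 CPM. Taking 3 counts per WT library as the limit, its knockout mean was at least 170.1-fold higher. The lowest knockout library, KO 1, was at least 38.0-fold higher than the highest such limit. The edgeR adjusted p-value was 0.0147, and it was 0.0644 in limma voom, 0.0679 without KO 3, 0.138 without WT 2 and 0.104 without WT 3. Being near 0 in WT, Col22a1 passed the filter on low counts through the knockout libraries alone. It lies on chromosome 15, 71795795 to 72034227, minus strand.

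Of the remaining classes the transmembrane collagens Col13a1 and Col23a1 did not overlap between groups and went in opposite directions. Col13a1, found at sites of cell adhesion, had 2.30, 2.00 and 2.00 CPM in knockout and 4.02, 3.59 and 3.42 CPM in WT. Its log2 fold change was -0.81 ± 0.195 (SE) with an edgeR adjusted p-value of 0.0687 over 6 libraries, 0.0377 with replicate 1 as a term, 0.0298 with replicates 2 and 3 and 0.00486 in DESeq2, and the replicate 1 pair had a log2 ratio of -0.78. Col23a1 had 0.566, 0.306 and 0.297 CPM against 0.177, 0.154 and 0.235 CPM, or 14 to 33 counts against 8 to 11, at a log2 fold change of 1.04 ± 0.435 (adjusted p = 0.187). The short-chain collagens Col8a1 and Col8a2 reached at most 1.38 and 0.729 CPM. Col8a2 fell with replicate 1 as a term (-2.16, adjusted p = 0.0478) and did not pass without it (-1.92 ± 0.922, adjusted p = 0.237), and Col8a1 was at -0.51 ± 0.472 (adjusted p = 0.527). Col7a1 of anchoring fibrils spanned 0.126 to 0.429 CPM against 0.276 to 0.406 CPM, with overlapping groups.

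**Figure D4:**
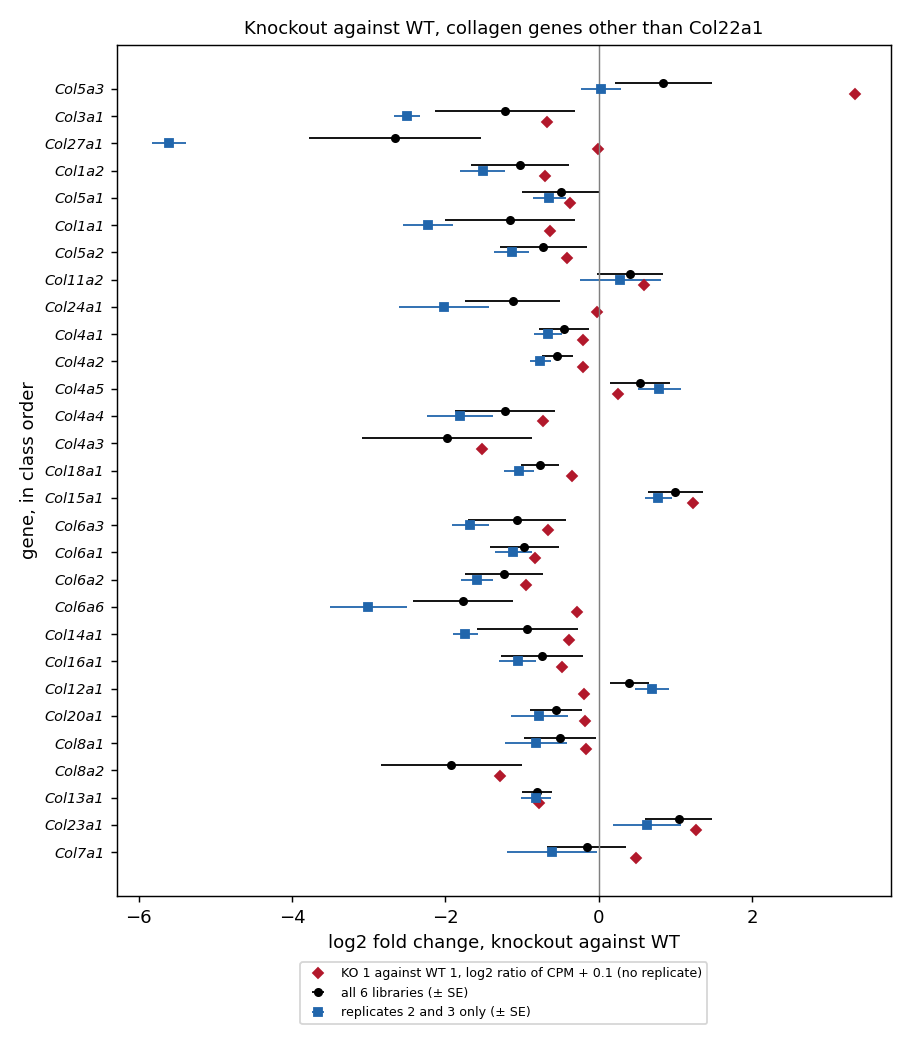
Log2 fold changes of knockout against WT for the tested collagen genes other than Col22a1, from all 6 libraries (black circles ± SE), from replicates 2 and 3 (blue squares ± SE) and as the ratio of KO 1 to WT 1 (red diamonds, no replicate). Col3a1 lies at -1.23, -2.50 and -0.67, Col27a1 at -2.65, -5.60 and -0.01, and Col5a3 at 0.84, 0.03 and 3.35.

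An interaction term over all genes tested whether the knockout difference was unlike in the replicate 1 pair and in the other mice. Of the 30 collagen genes 3 passed an edgeR adjusted p-value of 0.05, beside 2.90% of all tested genes, and all 3 are fibrillar. The interaction was 5.58 ± 0.335 for Col27a1 (adjusted p = 0.00508), 1.82 ± 0.270 for Col3a1 (adjusted p = 0.0325) and 3.33 ± 0.472 for Col5a3 (adjusted p = 0.0293), each on the log2 scale and positive where the knockout difference was higher in the replicate 1 pair. The replicate 1 pair holds 1 mouse per group, so the spread behind these p-values comes from replicates 2 and 3 and the pair is assumed to vary like them. Within WT, WT 1 was 2.52-fold above the mean of WT 2 and WT 3 for Col3a1, 2.38-fold for Col1a1, 2.21-fold for Col1a2 and 1.89-fold for Col14a1, and it was at 0.330 and 0.181 times that mean for Col27a1 and Col5a3. Within knockout, KO 1 was 8.94-fold above the mean of KO 2 and KO 3 for Col3a1, 7.15-fold for Col1a1, 15.8-fold for Col27a1 and 1.82-fold for Col5a3. KO 1 also had the highest Stk11 level of the knockout libraries, at 22.1 CPM against 14.4 and 11.4 CPM. Its summed level of cell cycle genes, 49.7 CPM, was the highest of the 6 libraries. The kind of the replicate 1 libraries, these traits of KO 1 and the individual mouse cannot be told apart.

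The genes that make, cross-link, bind, sense and break down collagen were counted in 7 lists, of which 87 genes were tested. Lamb3, a laminin chain of epithelial basement membranes, was the 1 gene called over 6 libraries, beside 2.15% higher and 1.22% lower among all genes tested, and it rose from 3.02, 4.24 and 3.74 CPM in WT to 9.01, 7.26 and 9.15 CPM (log2 fold change 1.21 ± 0.193, edgeR adjusted p = 0.0320). Its call was lost without any 1 library other than KO 1, with adjusted p-values from 0.0628 to 0.167. With replicates 2 and 3 alone 5 pathway genes were called as higher and 29 as lower, beside 17.2% and 16.1% of all genes tested there. The 29 include Loxl1, which met the filter on low counts there through the WT libraries alone.

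Procollagen folding and modification had a median log2 fold change of -0.57 over 17 genes, of which 15 were negative. Mia3, which loads procollagen into export vesicles, had 84.8, 84.1 and 79.8 CPM against 116, 132 and 129 CPM with no overlap (-0.60 ± 0.122, edgeR adjusted p = 0.0507). Plod3, a lysyl hydroxylase, and P4ha2 and P4ha1, catalytic subunits of prolyl 4-hydroxylase, were also lower without overlap, at -0.44, -1.27 and -0.57 (adjusted p = 0.0785, 0.0803 and 0.116). Serpinh1, the collagen chaperone, had the library order of the type I and III chains, with 13.6, 4.99 and 4.54 CPM in knockout and 22.8, 9.06 and 12.0 CPM in WT, and passed with replicates 2 and 3 (-1.15, adjusted p = 0.00888) but not over 6 libraries (-0.92, adjusted p = 0.300).

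Propeptide cleavage and cross-linking had a median of -0.35 over 10 genes. Adamts2, the procollagen N-propeptidase, had 4.91, 1.73 and 1.55 against 8.87, 4.82 and 5.64 CPM (edgeR adjusted p = 0.170, and 0.00431 with replicates 2 and 3). The cross-linking enzyme Loxl1 had 0.978, 0.0720 and 0.106 CPM against 2.50, 1.33 and 1.39 CPM and passed with replicates 2 and 3 (-3.92, adjusted p = 0.00220) but not over 6 libraries (-2.15, adjusted p = 0.194). With replicates 2 and 3 Loxl1 met the filter on low counts through the WT libraries alone. Its relative Loxl4 was higher in each knockout library than in any WT library, at 22.9, 7.13 and 11.1 against 5.28, 3.41 and 5.92 CPM (adjusted p = 0.0982), and Lox had 0.789, 0.342 and 0.276 CPM against 0.532, 0.347 and 0.257 CPM. Fibril-binding matrix proteins had a median of -0.62 over 12 genes, 11 of them negative, among them the small proteoglycans Fmod (-1.43 ± 0.577) and Lum (-0.90 ± 0.399) and the tenascin Tnxb (-1.21 ± 0.593), with adjusted p-values of 0.175, 0.206 and 0.244.

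Basement membrane partners had a median of -0.37 over 16 genes, with Hspg2 (perlecan) at -0.67 ± 0.337 and the cross-linking peroxidase Pxdn at -0.61 ± 0.369 (edgeR adjusted p = 0.255 and 0.332). Collagen receptors had a median of -0.30 over 9 genes, with the integrin chain Itga11 at -1.92, the receptor kinase Ddr2 at -0.75 and the integrin chain Itga2 at 0.85 (adjusted p = 0.159, 0.200 and 0.226). Breakdown enzymes and inhibitors had a median of -0.34 over 8 genes. The metalloproteinases went in different directions, with Mmp9 at -2.32 ± 0.532, Mmp13 at 2.34 ± 0.783 and Mmp14 at 0.56 ± 0.249 (adjusted p = 0.0636, 0.125 and 0.209), and Mmp9 and Mmp13 reached at most 0.449 and 1.46 CPM. Fibrogenic signals had a median of -0.03 over 15 genes. The growth factor genes Pdgfb and Pdgfc and the receptor gene Tgfbr2 were at 0.76, -0.66 and 0.86 (adjusted p = 0.147, 0.247 and 0.180), and Tgfb1 and Ccn2 at -0.55 and 0.17 (adjusted p = 0.319 and 0.607).

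Markers of cells that make collagen are given beside these values, and their part in the result was not tested. Of 12 stellate cell markers 12 were tested, 11 had negative log2 fold changes and 0 were called, beside 2.15% higher and 1.22% lower among all genes tested. The summed level of the stellate markers was 194 to 351 CPM against 278 to 579.6 CPM. Reln, one of them, had 50.1, 11.4 and 12.1 CPM against 88.6, 36.1 and 46.5 CPM, with KO 1 above WT 2 and WT 3 as for Col3a1. Ngfr, Colec10, Pdgfrb and Lrat were at -0.80, -0.70, -0.64 and -0.64 (edgeR adjusted p = 0.245, 0.266, 0.336 and 0.347). The 6 tested portal fibroblast markers were all negative, with sums of 3.82 to 12.5 CPM against 10.2 to 15.5 CPM, and Entpd2, Cd34 and Fbln2 were at -0.66, -0.90 and -1.03. Of 7 myofibroblast markers 5 were tested, with sums of 5.08 to 10.5 against 10.8 to 15.2 CPM. Acta2, their defining marker, had 2.23, 1.13 and 3.14 CPM against 3.04, 2.93 and 3.38 CPM, with KO 3 above WT 1 and WT 2, Tagln and Myh11 were at -0.82 and -0.42, and Timp1 was at most 0.355 CPM and not tested. No marker list of these 3 cell types had a member at 0 in all libraries. With replicates 2 and 3 alone edgeR called 4 of 12 stellate, 5 of 6 portal fibroblast and 0 of 6 myofibroblast markers as lower. It called 0 of them as higher, beside 16.1% lower and 17.2% higher among all genes tested there.

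All 12 endothelial markers were negative, and their sums, 202 to 315 CPM against 372 to 496 CPM, did not overlap. Tek, Fcgr2b, Ptprb and Pecam1 had log2 fold changes of -0.86, -0.79, -0.70 and -0.74 (edgeR adjusted p = 0.0541, 0.0565, 0.0590 and 0.0712), beside -0.45 and -0.54 for Col4a1 and Col4a2. The 6 tested hepatocyte markers were all negative too, with sums of 19587 to 69851 against 87440 to 122967 CPM, and Apoa1, Ttr and Fgb were at -2.07, -1.15 and -1.08 (adjusted p = 0.0568, 0.0775 and 0.132), beside -0.77 for Col18a1. Bile duct markers (7 tested, 3 negative) summed to 25.8 to 75.9 against 40.5 to 74.3 CPM, with Cldn4, Sox9 and Spp1 at 1.44, 0.15 and -0.30. Kupffer cell markers (7 tested, 5 negative) summed to 102 to 227 against 141 to 194 CPM, with Marco, Csf1r and Adgre1 at 0.56, -0.51 and -0.41. Mesothelial markers summed to at most 1.13 CPM in knockout and to 5.70, 1.16 and 1.22 CPM in WT, with Upk3b and Msln at -2.40 and -1.48. With replicates 2 and 3 alone edgeR called 11 of 12 endothelial, 5 of 6 hepatocyte and 1 of 2 mesothelial markers as lower and 0 as higher. Of 7 bile duct markers 1 was called as lower and 1 as higher, and of 7 Kupffer cell markers 3 and 1. Among all genes tested there the shares were 16.1% lower and 17.2% higher. Cell cycle genes summed highest in KO 1, at 49.7 CPM against 3.71 to 8.12 CPM in the other 5 libraries. Mki67 was at 20.4 CPM there and at most 3.35 CPM elsewhere, and Ccnb1 and Ccna2 were at 5.26 and 6.30 CPM in KO 1 and at most 0.385 and 1.01 CPM elsewhere. Cdk1 was higher in each knockout library than in any WT library, at 6.47, 2.45 and 2.84 CPM against 1.12, 1.02 and 1.07 CPM (1.87 ± 0.410, edgeR adjusted p = 0.0578, and 1.33, adjusted p = 0.0122, with replicates 2 and 3).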

How the data were processed

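Liver poly(A) RNA of 3 knockout and 3 WT mice was sequenced as 1 pool with paired reads of 76 nt, from about 20 mg of tissue and 200 ng of RNA with an integrity number above 8, per the labels' protocols. The authors deposited expected counts per gene, the RSEM estimates in which ambiguous reads are divided among genes. The submitters' processing notes name bcl2fastq 2.17, cutadapt 1.18, STAR 2.7.0f and RSEM 1.3.1 and the build mm9. All 55450 versioned gene identifiers were found in GENCODE release M21, which is built on GRCm38, so positions and exon lengths come from that release; the difference from mm9 was not resolved. The use of strand is not given in the sources used here, so overlapping and antisense genes are uncertain.

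Expected counts were rounded to whole numbers, filtered with filterByExpr, scaled by TMM and tested with edgeR 4.0.16 (quasi-likelihood, group as the only term, R 4.3.3), with Benjamini-Hochberg adjustment over all genes tested and a threshold of 0.05. The SE is the log2 fold change divided by the square root of the F statistic. Single-library log2 ratios use an offset of 0.1 CPM. Alternatives were DESeq2 1.42.0, limma 3.58.1 (voom), other scalings, no filter, the replicate number as a block, and fits that leave out libraries. The edgeR fit was tested before use on simulated data with less spread between libraries than was estimated here. That run does not show how many true changes the fit misses in these libraries. Groups and replicate numbers come from the titles, and 0 columns lacked a sample. The symbols Ctage5, Ctgf and Tf of the lists, and Col21a1, were not matched and are not analysed here; Ctgf is an older name of Ccn2, which is in the same list.

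Collagen genes were named in full where tested. Of each other list the 3 genes with the smallest p-value were named, and 12 genes whatever their result. The members and lists were chosen with earlier results of these data known.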

Additional observations from a re-analysis of the deposited data

Results flagged for a closer look

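For 3 collagen genes the interaction term in edgeR passed the threshold for a knockout difference that is unlike in the replicate 1 pair and in replicates 2 and 3. The pair is 1 mouse against 1, so the spread behind the p-values comes from the other 4 libraries. The interaction on the log2 scale was 5.58 for Col27a1 (adjusted p = 0.00508), 1.82 for Col3a1 (adjusted p = 0.0325) and 3.33 for Col5a3 (adjusted p = 0.0293). Col27a1 and Col3a1 lay further below WT in KO 2 and KO 3 than in KO 1, and Col5a3 was 10.3-fold higher in KO 1 than in WT 1 and 1.02-fold in the other libraries. With library size alone as the scaling the adjusted p-value of Col3a1 was 0.0680, and those of Col27a1 and Col5a3 were 0.00177 and 0.00886.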

How the results depend on the processing

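With 3 mice per group the number of calls depended on the libraries used. All genes called numbered 490, and 2290 in DESeq2, 771 with no filter on low counts, 105 with the replicate block, 4847 without replicate 1 of both groups, 1504 with replicate 1 as a term (chosen after seeing the data) and 6 to 4473 when 1 library was left out, the most without KO 1 and the fewest without WT 2. With library size alone as the scaling 380 were higher and 131 lower, in place of 313 and 177. Collagen genes called numbered 1, and 3 in DESeq2, 0 in limma voom, 21 without replicate 1 of both groups, 8 with replicate 1 as a term and 0 to 21 when 1 library was left out, the most without KO 1 and none without KO 3, WT 2 or WT 3. Pathway genes called numbered 1, and 7 in DESeq2, 2 in limma voom, 0 with the replicate block, 34 without replicate 1 of both groups, 17 with replicate 1 as a term and 0 to 27 when 1 library was left out, the most without KO 1. With libraries left out in turn the class medians ran from -1.92 to -0.54 (fibrillar), from -0.85 to -0.30 (type IV) and from -1.27 to -0.58 (other classes), and the log2 ratio of the summed level from -1.04 to -0.0614 (fibrillar) and from -0.76 to -0.25 (type IV). The lowest of each came without KO 1. The interaction called 421 genes, and 1607 with no filter, among them 3 and 5 collagen genes. The cause of these changes was not tested.

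Same-numbered samples are different mice. The correlation of their deviations from the group means was 0.178, 0.0443 and 0.0679 for numbers 1 to 3, and the labels give no pairing. KO 1 correlated best with WT 1, while KO 2 and KO 3 each correlated best with the WT library of the other number (0.120 and 0.203). With 3 libraries per group these correlations cannot decide whether the numbers pair the samples. With the replicate block 1 collagen gene was called, Col22a1 (edgeR adjusted p = 0.0109), and the adjusted p-value of Lamb3 was 0.0795.

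The direction of all 30 tested collagen genes held under every alternative that could be fitted, except for Col7a1, which ran from -0.45 to 0.23 over the left-out libraries and was positive without KO 2. Some others kept their sign only near 0. Col5a1 was at -0.00677 without WT 1, Col5a3 at 0.0269 without replicate 1 of both groups and Col11a2 at 0.0529 without KO 2. Over the left-out libraries Sox9 ran from -0.0162 to 0.24, Spp1 from -1.005 to 0.0124 and Lox from -0.30 to 0.63. Ccnb1 was at -0.0850 in limma voom and -1.66 without replicate 1 of both groups, and Ccna2 at -0.58 in the latter. Mki67 was at -0.32 in limma voom, -0.19 with the replicate block, -1.56 without replicate 1 of both groups and -0.0483 with replicate 1 as a term. Over the left-out libraries Ccnb1, Ccna2 and Mki67 ran from -1.68 to 2.88, -0.82 to 2.14 and -2.15 to 2.40. Scarce collagen genes such as Col23a1, Col24a1 and Col4a4 rest on 2 to 45 counts per library, so counting error adds to the spread between mice. Small differences in such genes could be missed, and no limit of detection was computed.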
